A study of Mus musculus with 8 samples.

Results

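The beta chain of the T cell receptor is assembled from V, D, J and C gene segments that lie side by side on mouse chromosome 6. All rows of the count table whose symbol starts with Trbv, Trbd, Trbj or Trbc were taken, which gave 53 of 47937 rows: 35 V, 2 D, 14 J and 2 C segments. RNA came from sorted CD8 single-positive (CD8SP) thymocytes that were TCRb+ and MHC-I high, the mature cells about to leave the thymus, of mice 6 to 7 weeks old. The 4 control mice (Ndrg3 ctrl) were Ndrg3 +/fl;Lck-cre+ and the 4 knockout mice (Ndrg3 TKO) were Ndrg3 fl/fl;Lck-cre+, so both groups carried Lck-cre and the controls kept 1 unfloxed allele. The proximal Lck promoter drives Cre from an early stage of T cell development, and each library came from 1 mouse.

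In a developing T cell the RAG recombinase joins a D to a J segment and then a V segment to this DJ unit. Terminal transferase and the end-joining proteins trim, extend and seal the joints, and splicing links the result to a constant gene. Each mature cell therefore transcribes, as its productive chain, the V segment that its own rearrangement chose. The share of Trbv counts that falls on a segment is read here as V beta usage. It measures RNA, so RNA per cell, segment length and read counting enter it beside how often cells use the segment. A beta chain is tested in the thymus first with the pre-T alpha chain and then, with a rearranged alpha chain, by positive and negative selection.

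The V segments that the results turn on differ in sequence up to the codon of their conserved cysteine, where the antigen-binding loop CDR3 begins. The last 60 bases of the V exon are shown for the Trbv13 family, for Trbv12-2 and Trbv12-3 and for Trbv29, in GENCODE M21 on GRCm38, with the bases from the cysteine codon to the end of the exon in capitals. All lie on the plus strand. Trbv12-3 is annotated as a pseudogene with no reading frame and has no capitals.
Trbv13-1, chr6:41116409-41116468: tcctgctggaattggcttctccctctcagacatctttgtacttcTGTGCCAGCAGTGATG
Trbv13-2, chr6:41121773-41121832: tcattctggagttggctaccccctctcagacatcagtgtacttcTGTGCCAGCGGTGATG
Trbv13-3, chr6:41130526-41130585: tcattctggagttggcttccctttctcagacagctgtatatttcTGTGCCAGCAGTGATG
Trbv12-2, chr6:41119305-41119364: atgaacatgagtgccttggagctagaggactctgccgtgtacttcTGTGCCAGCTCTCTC
Trbv12-3, chr6:41128017-41128076: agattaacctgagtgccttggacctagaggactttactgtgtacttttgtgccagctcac
Trbv29, chr6:41271822-41271881: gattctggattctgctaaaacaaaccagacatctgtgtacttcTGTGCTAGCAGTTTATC
The transcripts of the 3 Trbv13 segments share 86.1% to 90.6% of their aligned bases, with uninterrupted identical runs of 34 to 50 bases. Those of the 3 Trbv12 segments share 83.0% to 88.3%, with runs of 30 to 53 bases. How reads that match several of these segments, or that span a V and a J segment, were counted is not given in the sources used here, so the values of near-identical segments are uncertain to that extent.

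Library totals ranged from 21126698 to 32668081 counts, and the Trb rows together took 1478 to 1616 CPM (counts scaled to the library total). Ndrg3 itself, counted over all its exons although only a floxed exon is deleted, stood at 2294 to 2359 normalized counts (scaled by edgeR's TMM factors to the mean library total) in Ndrg3 ctrl and at 1402 to 1601 in Ndrg3 TKO. This is a log2 fold change of -0.64 (SE 0.053, adjusted p = 1.04e-05 in edgeR's quasi-likelihood test), and the 2 groups did not overlap. The sorted cells carried the CD8-lineage transcripts Cd8a, Cd8b1 and Runx3 at 2383 to 2530 summed CPM, while Cd4 had at most 44 counts in a library. Genes of the Y chromosome were at 340 to 416 CPM in ctrl replicate 2 and TKO replicates 2 and 3 and at most 0.0752 in the others.

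In the fit by group alone, no Trb row passed the threshold of an adjusted p of 0.05 between Ndrg3 TKO and Ndrg3 ctrl. After edgeR's filter on low counts 41 of the 53 rows were tested (23 V, 2 D, 14 J and 2 C), and 0 passed in edgeR, against 1.15% of all 14633 tested genes. DESeq2 also called 0 of them, against 2.11% of the same genes. At an unadjusted p under 0.05 edgeR had 3 rows, Trbv12-2, Trbv12-3 and Trbv13-2, against 10.9% of all tested genes. Of the 41 rows, 24 were higher and 17 lower in Ndrg3 TKO by point estimate, with a median log2 fold change of 0.0489 beside -0.0033 over all tested genes. The median size of the change was 0.116 for the Trb rows and 0.0883 for all tested genes. Normalized counts did not overlap between the groups for 1 of the 41 rows, Trbv12-3, against 7.04% of all tested genes.

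**Figure D1:**
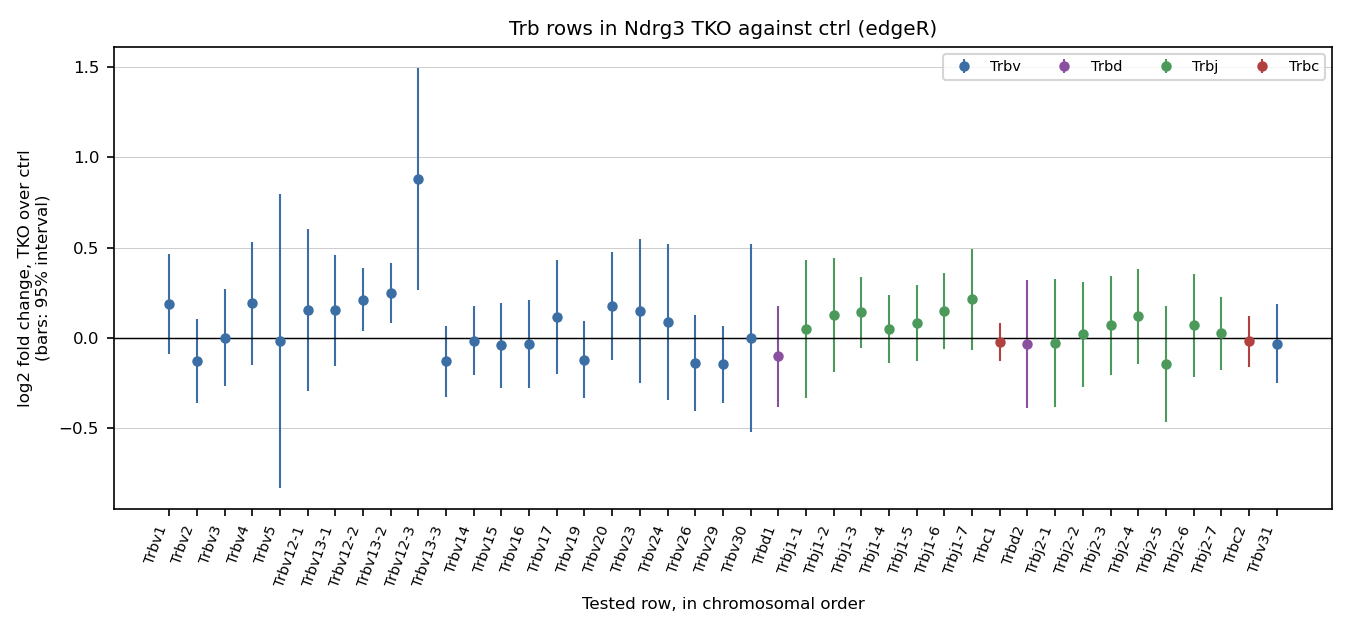
Log2 fold change of Ndrg3 TKO over Ndrg3 ctrl for the 41 tested Trb rows in chromosomal order, from the edgeR fit, with bars for the 95% interval and colours for V, D, J and C segments. The intervals of Trbv12-2, Trbv13-2 and Trbv12-3 lie above 0 and all others include it, and no row passed the adjusted threshold.

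Of the 35 V rows, 22 are annotated as functional and 13 as pseudogenes. The 12 V rows that did not pass the filter include 7 pseudogenes with no count in any library, which at a floor of 3 counts allows up to 0.0918 to 0.142 CPM, and 5 rows with at most 14 counts in a library. Trbv21 was the only functional segment among these 12. Pseudogenes took 0.434% to 0.622% of all Trbv counts. The 18 segments with a mean share of at least 1% held 98.4% or more of the Trbv counts in each library, and the effective number of V segments (the exponential of the Shannon entropy of the shares) was 15.6 to 16.4 in Ndrg3 ctrl and 15.0 to 16.1 in Ndrg3 TKO. These ranges overlap, as do the shares of the 3 most used segments summed, at 31.6% to 34.0% and 33.3% to 37.5%.

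Per base of exon, Trbv13-2 was the most abundant V segment, with a mean of 19.0% of the length-scaled Trbv counts over the 8 libraries. Trbv16 followed with 8.39%, Trbv12-2 with 7.78%, Trbv13-3 with 7.52%, Trbv15 with 7.31%, Trbv3 with 6.91%, Trbv29 with 6.63% and Trbv14 with 5.96%. Trbv13-2 exceeded the second in every library of both groups, while each of the next 7 segments overlapped its neighbours in this order across libraries.

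Shares of all Trbv counts, without scaling for length, were compared for the 18 segments by exact permutation of the 8 libraries, which has 70 splits and cannot give a p below 0.0286. Of these segments, 8 had a higher and 10 a lower mean share in Ndrg3 TKO. Only Trbv29 had shares that did not overlap between the groups, 1 of 18 beside 6.54% of all tested genes when each is scaled to the summed Trbv counts. Because shares add up to a fixed total, a larger share of one segment lowers those of the others.

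**Figure D2:**
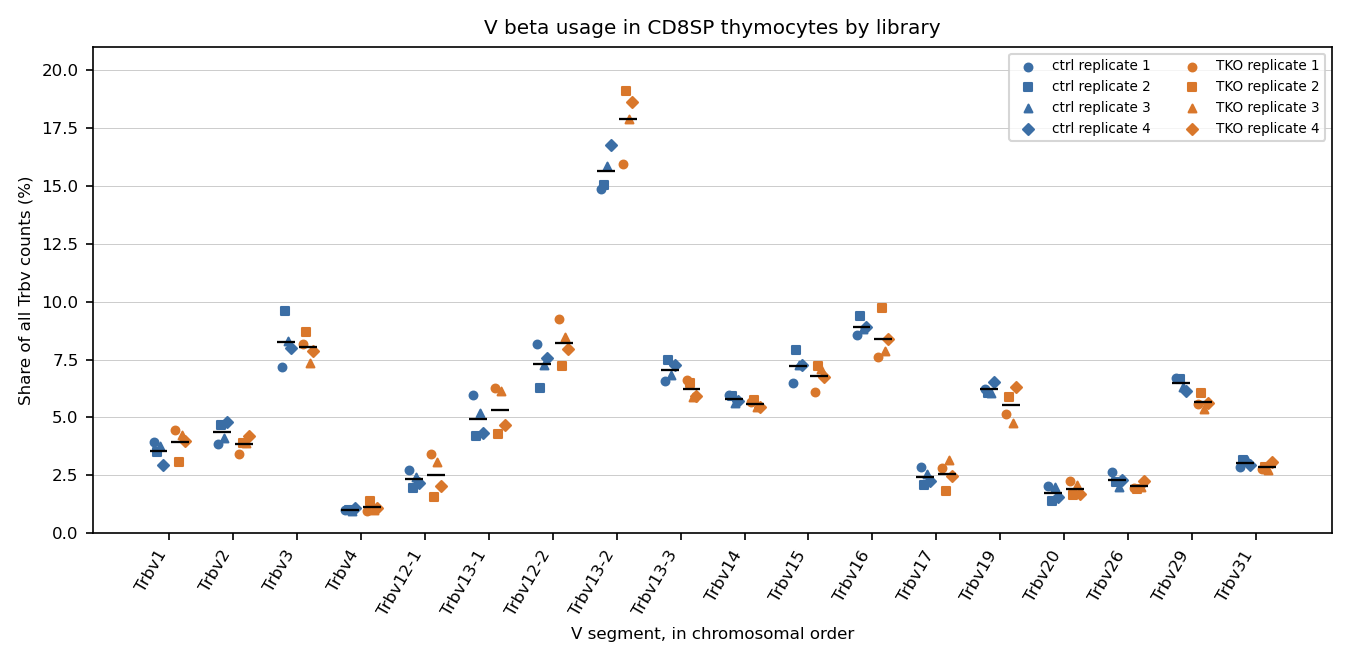
Share of all Trbv counts (%) on the 18 V segments of at least 1%, in chromosomal order, with 1 point per library, blue for ctrl and orange for TKO, a marker shape per replicate number and a black line at each group's mean. Trbv13-2 stands at 14.9% to 19.1%, apart from all others, and only Trbv29 has groups that do not overlap.

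Trbv29, the V beta 7 segment of the older nomenclature, took 6.72%, 6.67%, 6.33% and 6.15% of the Trbv counts in Ndrg3 ctrl replicates 1 to 4. In Ndrg3 TKO it took 5.58%, 6.07%, 5.37% and 5.63%. Every TKO library lay below every ctrl library, the closest being TKO replicate 2 and ctrl replicate 4. The mean share was 6.47% ± 0.274 (SD, n = 4) against 5.66% ± 0.296 (SD, n = 4), a difference of -0.805 percentage points (p = 0.0286, exact permutation test, 2-sided, 1 of 18 segments tested). By normalized counts they overlapped, at 660 to 892 and 649 to 792, and the log2 fold change of -0.15 (SE 0.099, 95% interval -0.36 to 0.07) did not pass the threshold (adjusted p = 0.638 in edgeR).

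Trbv13-2, of the V beta 8 family, took 14.9%, 15.0%, 15.8% and 16.8% of the Trbv counts in Ndrg3 ctrl replicates 1 to 4. In Ndrg3 TKO the shares were 15.9%, 19.1%, 17.9% and 18.6%. TKO replicate 1 lay among the ctrl libraries and the other 3 TKO libraries above all of them. The 95% Wilson interval for counting error ran from 14.3% to 15.8% in ctrl replicate 2, the shallowest library. It ran from 18.5% to 19.7% in TKO replicate 2, which had the highest share. The variance within groups was 11.5 times that of binomial counting, a spread that these intervals do not measure. Such intervals and the floors cover counting error only, because PCR copies of 1 molecule were not collapsed by molecular identifiers. The mean share was 15.6% ± 0.88 in Ndrg3 ctrl and 17.9% ± 1.39 in Ndrg3 TKO (SD, n = 4 each), a difference of 2.26 percentage points (p = 0.0571, exact permutation test, 2-sided).
Normalized counts of Trbv13-2 were 1815, 2008, 1746 and 1802 in Ndrg3 ctrl and 1853, 2492, 2196 and 2209 in Ndrg3 TKO. This is a log2 fold change of 0.25 (SE 0.078, 95% interval 0.08 to 0.42, adjusted p = 0.203 in edgeR). Without TKO replicate 1 it was 0.32 and passed the threshold (adjusted p = 0.0442 in edgeR). Without any other single library it was 0.18 to 0.29 and did not pass (adjusted p = 0.149 to 0.392 in edgeR).

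The other members of the family had other patterns. Trbv13-3 took 6.55%, 7.47%, 6.82% and 7.28% in Ndrg3 ctrl and 6.61%, 6.49%, 5.88% and 5.91% in Ndrg3 TKO, with TKO replicate 1 above ctrl replicate 1 and the other TKO libraries below every control. The difference was -0.809 percentage points (p = 0.0571, exact permutation test, 2-sided), and the log2 fold change was -0.13 (SE 0.092, 95% interval -0.33 to 0.07, adjusted p = 0.656 in edgeR). Trbv13-1 averaged 4.93% ± 0.822 and 5.34% ± 1.01 (SD, n = 4 each), with a wide spread inside both groups. Summed over the 3 Trbv13 segments, the family took 26.7% to 28.4% in Ndrg3 ctrl and 28.8% to 29.9% in Ndrg3 TKO. Such a sum does not depend on how counted reads were divided among the 3 segments. It still depends on whether reads that match several of them were counted at all. The sums did not overlap, and they are given without a test because the family was singled out after its values were seen. Trbv13-2 made up 54.3% to 59.1% of the family's counts in Ndrg3 ctrl and 55.3% to 63.9% in Ndrg3 TKO.

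The Trbv12 family, V beta 5 of the older nomenclature, had its members interleaved with Trbv13 along the chromosome. Trbv12-2 took 8.19%, 6.27%, 7.25% and 7.55% of the Trbv counts in Ndrg3 ctrl and 9.25%, 7.20%, 8.47% and 7.94% in Ndrg3 TKO. The groups overlapped, the difference in mean share was 0.901 percentage points (p = 0.229, exact permutation test, 2-sided), and the log2 fold change was 0.21 (SE 0.081, 95% interval 0.04 to 0.38, adjusted p = 0.326 in edgeR). The pseudogene Trbv12-3 had the largest change of all Trb rows by point estimate, on few counts. Its raw counts were 10, 12, 19 and 10 in Ndrg3 ctrl and 24, 26, 32 and 28 in Ndrg3 TKO. All TKO libraries were above all ctrl libraries, and the log2 fold change was 0.88 (SE 0.286, 95% interval 0.27 to 1.49, adjusted p = 0.219 in edgeR). Its transcript shares an identical run of 53 bases with that of Trbv12-2, which had 589 to 1121 counts in a library, and whether reads of Trbv12-2 contribute to its counts was not tested.

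Trbv26, with Trbv29 and Trbv13-3 one of the 3 V segments with the lowest log2 fold changes, was at -0.14 (SE 0.124, 95% interval -0.40 to 0.13, adjusted p = 0.738 in edgeR). Trbv26 took 2.66%, 2.21%, 2.01% and 2.31% of the Trbv counts in Ndrg3 ctrl and 1.96%, 1.92%, 1.99% and 2.25% in Ndrg3 TKO, with overlapping groups. Trbv19 averaged 6.22% ± 0.219 and 5.53% ± 0.71 (SD, n = 4 each), where TKO replicate 4, at 6.33%, lay among the controls. Trbv16 averaged 8.91% and 8.41%, Trbv3 8.27% and 8.03%, and Trbv15 7.23% and 6.79% in Ndrg3 ctrl and Ndrg3 TKO. For the 14 segments of at least 1% other than Trbv12-2, Trbv13-2, Trbv13-3 and Trbv29 the exact p ran from 0.114 to 0.743. None of these segments had 2 groups apart, and their intervals of the log2 fold change reached 0.60 at the upper end, for Trbv12-1, and -0.40 at the lower, for Trbv26.

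Part of the V segments varied between libraries of 1 genotype far more than counting error allows. Trbv12-1 took 2.73%, 1.96%, 2.41% and 2.19% in Ndrg3 ctrl and 3.43%, 1.57%, 3.07% and 2.05% in Ndrg3 TKO, a ratio of 2.18 between the highest and the lowest library. Its variance within groups was 21.4 times that of binomial counting, that of Trbv13-1 was 20.7 times, those of Trbv13-2 and Trbv12-2 were each 11.5 times, that of Trbv17 10.7 times, that of Trbv3 10.1 times and that of Trbv1 9.37 times. Trbv14, at 5.44% to 5.96% in all 8 libraries, and Trbv31, at 2.75% to 3.16%, varied no more than counting, with ratios of 0.555 and 0.988. TKO replicates 1 and 3 and ctrl replicate 1 had the 3 highest shares of Trbv12-1, Trbv13-1, Trbv12-2, Trbv17 and Trbv20. These segments were thus high in the same libraries of both genotypes. Y-linked genes were at 0, 0.0664 and 416 CPM in ctrl replicate 1, TKO replicate 1 and TKO replicate 3. The totals of these libraries were 29699102 to 30113254 counts. What the libraries had in common was not tested. With 1 library per mouse, mouse and library preparation cannot be told apart. This grouping of segments was made after their shares were seen and carries no test. Compared as whole profiles, pairs of libraries differed in 3.59% to 7.15% of their Trbv counts within Ndrg3 ctrl, in 4.2% to 9.34% within Ndrg3 TKO and in 4.36% to 10.9% between the groups (medians 4.74%, 5.96% and 6.04%).

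**Figure D3:**
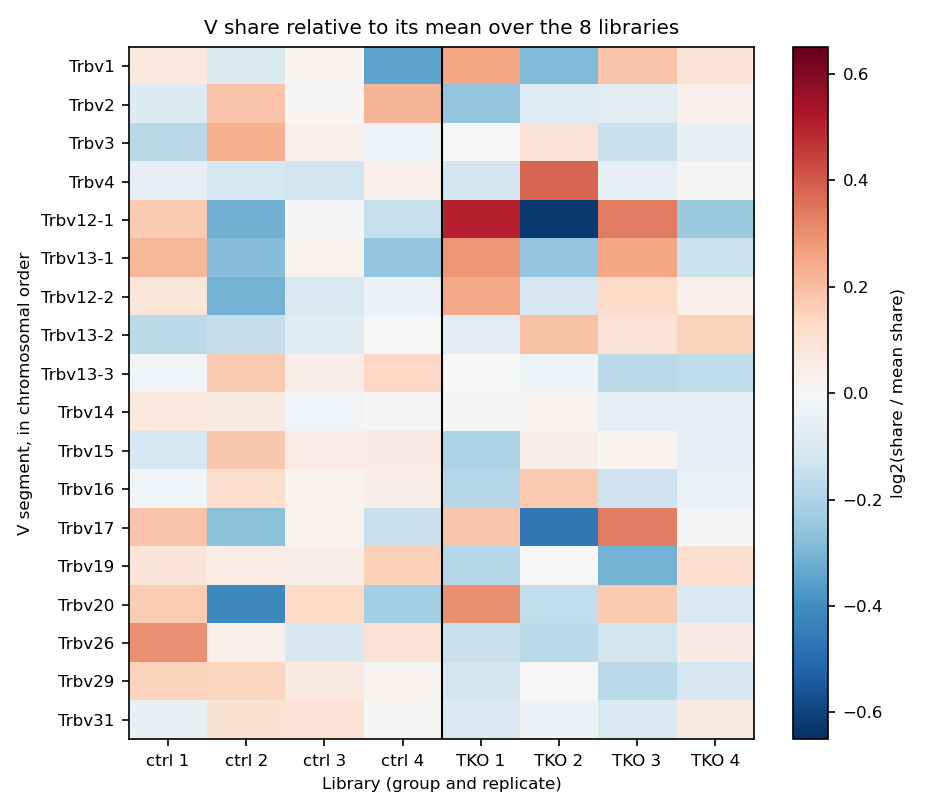
Log2 of each V segment's share over its mean share in the 8 libraries, for the 18 segments of at least 1% (rows, in chromosomal order) by library (columns, with a line between ctrl and TKO), red above and blue below the mean. Trbv12-1, Trbv13-1, Trbv17 and Trbv20 are red in ctrl replicate 1 and TKO replicates 1 and 3 and blue in ctrl replicates 2 and 4 and TKO replicate 2, while Trbv14 and Trbv31 stay pale.

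Invariant NKT cells, innate-like T cells that recognise lipids on CD1d, pair an alpha chain of Trav11 and Traj18 with beta chains of the Trbv13 family, Trbv29 or Trbv1. Their defining transcripts were therefore read beside the V shares. Zbtb16, their lineage transcription factor, had 10, 6, 6 and 4 counts in Ndrg3 ctrl and 2, 1, 1 and 3 in Ndrg3 TKO, too few to be tested, with every TKO library below every ctrl library. Trav11 had at most 6 counts in a library and Trav11d at most 3. Traj18, the only one of these alpha chain rows to be tested, had a log2 fold change of 0.12 (SE 0.133, adjusted p = 0.795 in edgeR). Traj18 had 214 to 464 counts in a library, far more than Trav11 and Trav11d. Its level therefore cannot be read as that of chains with both segments. Of the 5 genes on a list of genes tied to NKT cells 4 were tested, all but Zbtb16. Of these 1, Klrb1c, passed the threshold, against 1.15% of all tested genes, on a list chosen with earlier results of these data known. Klrb1c rose, so Zbtb16 and Klrb1c lay in opposite directions. Klrb1c, which encodes NK1.1, had 7.76, 18.5, 5.88 and 3.18 normalized counts in Ndrg3 ctrl and 45.1, 42.7, 59.0 and 58.6 in Ndrg3 TKO, with no overlap. Its log2 fold change was 2.62 (SE 0.358, adjusted p = 0.00149 in edgeR). The summed level of the list was 341 to 388 CPM in Ndrg3 ctrl and 325 to 381 in Ndrg3 TKO. Most of it came from Il2rb and Cd1d1. Cd1d1 encodes CD1d itself, so the sum is not read as a level of NKT cells. By tetramer staining, the paper reports invariant NKT cells as nearly lacking from thymus and spleen of Ndrg3 TKO mice. That staining measured cells, not RNA of the sorted CD8SP cells. The part of NKT cells in the V shares was not tested. From the bulk RNA alone, fewer cells of a type and less RNA per cell cannot be told apart.

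The D segments are the shortest genes of the locus. Their sequences show the G-rich core that becomes the middle of CDR3, in GRCm38 on the plus strand and without capitals because no part is singled out.
Trbd1, chr6:41533201-41533212: gggacagggggc
Trbd2, chr6:41542163-41542176: gggactgggggggc
Trbd1 had 183, 114, 172 and 162 counts in Ndrg3 ctrl and 138, 165, 163 and 218 in Ndrg3 TKO. Its log2 fold change was -0.10 (SE 0.131, 95% interval -0.38 to 0.18, adjusted p = 0.834 in edgeR). Trbd2 had 53 to 91 counts in Ndrg3 ctrl and 72 to 93 in Ndrg3 TKO, with a log2 fold change of -0.03 (SE 0.165, 95% interval -0.39 to 0.32, adjusted p = 0.963). Trbd1 took 68.3% of the counts of the pair over the 8 libraries, and 71.5% per base. Both segments are shorter than a read, so their counts need not scale with length, and they are not read as D usage. The raw share of Trbd1 was 69.0% ± 3.36 in Ndrg3 ctrl and 67.6% ± 5.91 in Ndrg3 TKO (SD, n = 4 each), a gap smaller than the spread inside either group.

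The J segments form cluster 1, which follows Trbd1 and precedes Trbc1, and cluster 2, which follows Trbd2 and precedes Trbc2. A typical J segment encodes a phenylalanine and a pair of glycines that close CDR3, which at the DNA level is the motif TTNGGNNNNGG. This motif was found on the plus strand in 11 of the 14 Trbj segments (78.6%) and on the reverse strand in none, beside 46 of the 60 Traj segments (76.7%) of the alpha chain. The 3 J segments with the largest shares are shown with the motif in capitals, together with the 3 that lack it.
Trbj1-4, chr6:41534811-41534861: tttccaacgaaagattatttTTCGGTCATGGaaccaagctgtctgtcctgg
Trbj1-5, chr6:41535084-41535133: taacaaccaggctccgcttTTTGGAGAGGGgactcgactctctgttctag
Trbj2-7, chr6:41543810-41543856: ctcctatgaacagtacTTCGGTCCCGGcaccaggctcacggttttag
Trbj1-6, chr6:41535554-41535606: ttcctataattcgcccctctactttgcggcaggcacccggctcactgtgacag
Trbj1-7, chr6:41535642-41535687: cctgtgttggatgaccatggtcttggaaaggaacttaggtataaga
Trbj2-6, chr6:41543598-41543645: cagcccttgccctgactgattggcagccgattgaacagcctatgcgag
All coordinates are GRCm38, plus strand. A missing match says only that these letters are not in the segment, and Trbj2-6 is annotated as a pseudogene.

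All 14 J segments were tested and none passed the threshold, with 0 at an unadjusted p under 0.05 in edgeR and 0 called by DESeq2. By point estimate 12 were higher and 2 lower in Ndrg3 TKO, from -0.14 for Trbj2-5 to 0.21 for Trbj1-7 on the log2 scale. Each of the 14 intervals included 0.
Trbj1-4 had 558, 343, 524 and 489 counts in Ndrg3 ctrl and 537, 520, 641 and 597 in Ndrg3 TKO, which made 16.2%, 15.8%, 15.9% and 14.9% and 14.1%, 15.0%, 17.3% and 15.2% of all Trbj counts. The highest and the lowest of these shares both belonged to Ndrg3 TKO, and the mean differed by -0.30 percentage points (p = 0.743, exact permutation test, 2-sided). Trbj1-5 averaged 14.1% ± 0.995 and 14.2% ± 0.643 (p = 0.914), and Trbj2-7 averaged 11.6% ± 0.957 and 11.3% ± 0.728 (SD, n = 4 each, p = 0.543, exact permutation tests, 2-sided). The log2 fold changes of these 3 segments were 0.05 (95% interval -0.14 to 0.24), 0.08 (-0.13 to 0.29) and 0.03 (-0.18 to 0.23).

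Per base, Trbj1-4 was at 356, Trbj1-5 at 332, Trbj2-7 at 284 and Trbj1-6 at 244 CPM per kilobase over the 8 libraries, whereas Trbj1-1 was the lowest at 50.6. The segments that lack the motif were not absent. Trbj1-7 had 106 to 246 counts in a library and Trbj2-6 had 91 to 195, which is 137 and 115 CPM per kilobase and above the functional Trbj1-1, Trbj1-2, Trbj2-1, Trbj2-2, Trbj2-3 and Trbj2-5. Library preparation used total RNA depleted of ribosomal RNA, and whether this bears on the J counts was not tested. Cluster 1 took 63.2%, 58.9%, 61.3% and 61.3% of the Trbj counts in Ndrg3 ctrl and 62.0%, 61.4%, 63.8% and 63.1% in Ndrg3 TKO. The groups overlapped, with means of 61.2% ± 1.76 and 62.6% ± 1.09 (SD, n = 4 each).

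**Figure D4:**
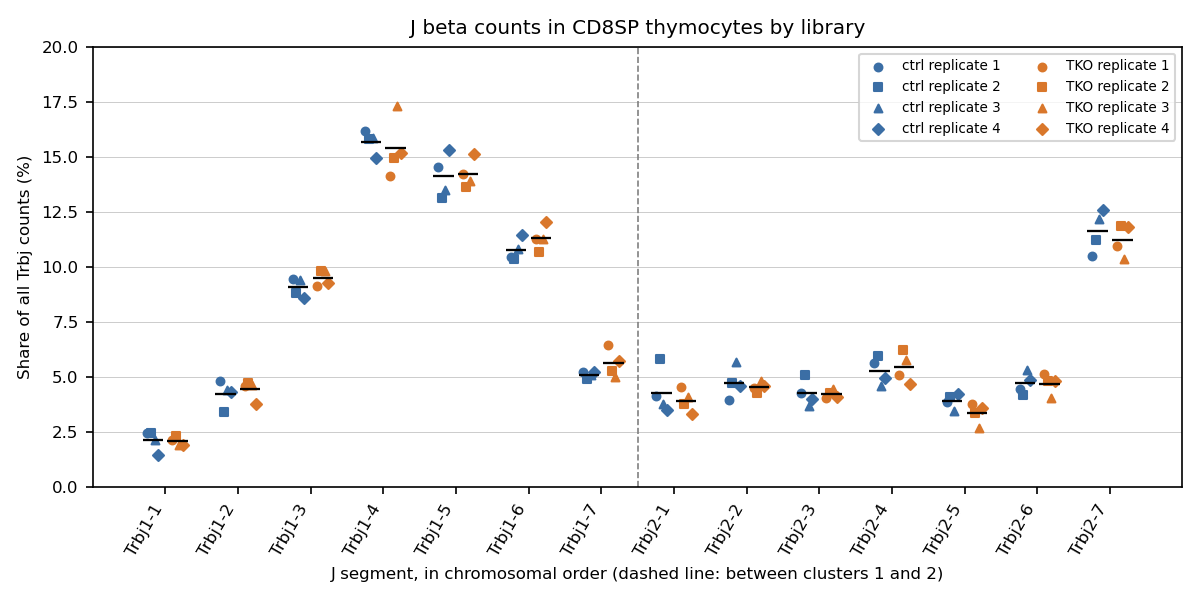
Share of all Trbj counts (%) on the 14 J segments in chromosomal order, with 1 point per library, blue for ctrl and orange for TKO, a marker shape per replicate number, a black line at each group's mean and a dashed line between clusters 1 and 2. Trbj1-4, Trbj1-5, Trbj1-6 and Trbj2-7 stand above the rest, and the groups overlap in all 14 segments.

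The constant genes Trbc1 and Trbc2 encode the membrane-proximal part of the beta chain and serve joints of cluster 1 and cluster 2, respectively. Trbc1 (GRCm38 chr6:41538218-41539881) had 11412, 11283, 11056 and 10618 normalized counts in Ndrg3 ctrl and 10537, 10804, 11427 and 10923 in Ndrg3 TKO. Trbc2 (chr6:41546730-41548352) had 17729, 20597, 17691 and 17402 in Ndrg3 ctrl and 16659, 18687, 18417 and 18692 in Ndrg3 TKO. Both pairs of groups overlapped, and ctrl replicate 2 and TKO replicate 1 stood apart from their groups for Trbc2.
The log2 fold change was -0.02 for Trbc1 (SE 0.05, 95% interval -0.13 to 0.08, adjusted p = 0.908 in edgeR) and -0.02 for Trbc2 (SE 0.067, 95% interval -0.16 to 0.12, adjusted p = 0.949). Trbc1 made up 37.7% ± 1.64 of their summed counts in Ndrg3 ctrl and 37.6% ± 1.04 in Ndrg3 TKO (SD, n = 4 each), and 35.8% per base over the 8 libraries. The majority of the J counts thus fell on cluster 1 and the majority of the C counts on Trbc2. The transcripts of the constant genes share 87.0% of 676 aligned bases and an identical run of 259 bases, so their split depends on how the counting treated reads with several matches. For 100 Trbc counts a library had 38.3 to 41.9 Trbv counts in Ndrg3 ctrl and 40.1 to 44.2 in Ndrg3 TKO, and 9.67 to 12.4 and 10.7 to 13.4 Trbj counts.

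Genes of the machinery that assembles the locus gave no call in edgeR. Of 12 genes on a list of recombination and end-joining factors 11 were tested and 0 passed, against 1.15% of all tested genes. In edgeR 3 had an unadjusted p under 0.05, against 10.9% of all tested genes, and DESeq2 called 1, against 2.11%. Their median log2 fold change was -0.028. Dntt, which encodes the terminal transferase that adds bases at the joints, had 541, 422, 428 and 410 normalized counts in Ndrg3 ctrl and 736, 554, 609 and 562 in Ndrg3 TKO. Its groups did not overlap, and its log2 fold change was 0.45 (SE 0.110, adjusted p = 0.0783 in edgeR), and it was the gene that DESeq2 called. The polymerases of the end-joining pathway had values below the controls, with log2 fold changes of -0.22 for Polm (SE 0.068, adjusted p = 0.201) and -0.20 for Poll (SE 0.076, adjusted p = 0.331). Rag1 had 29 to 181 counts and Rag2 at most 4, beside at most 3 for Ptcra, the pre-T alpha chain.

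Of 13 genes on a list of receptor complex, proximal signalling and locus-binding factors 12 were tested, and 1 passed the threshold, against 1.15% of all tested genes. This was Gata3, a transcription factor of T cell development, which rose. It had 1799, 1725, 1643 and 1618 normalized counts in Ndrg3 ctrl and 2601, 2331, 2380 and 2205 in Ndrg3 TKO, with no overlap and a log2 fold change of 0.49 (SE 0.059, adjusted p = 0.000525 in edgeR). The median of the list, which was chosen with earlier results of these data known, was 0.014. The CD3 chains, which carry the receptor's signal, did not pass, with log2 fold changes of 0.01 for Cd3d, 0.11 for Cd3e, 0.10 for Cd3g and 0.06 for Cd247. Trac, the constant gene of the alpha chain, had -0.03 (SE 0.059, adjusted p = 0.891).

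The genes around the Trb segments were mostly silent. Among 12 neighbours with a row, 4 trypsinogen genes had no count in any library, and 2 were tested. Prss2, a trypsinogen gene, had 24.5 to 58.2 normalized counts in Ndrg3 ctrl and 42.7 to 53.2 in Ndrg3 TKO, with a log2 fold change of 0.09 (SE 0.240, adjusted p = 0.928 in edgeR). Ephb6, a receptor of the Eph family downstream of the locus, had 2037 to 2260 and 2296 to 2508. The Ephb6 groups did not overlap, and its log2 fold change of 0.15 (SE 0.053) did not pass the threshold (adjusted p = 0.295 in edgeR). The lncRNA 5830405F06Rik, which overlaps Trbv4 and Trbv5, had a log2 fold change of -0.02 (SE 0.157, adjusted p = 0.985), and AC153851.1, which overlaps the pseudogenes Trbv8, Trbv9 and Trbv10, had 1 count in all.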

How the data were processed

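RNA of sorted CD8SP TCRb+ MHC-I high thymocytes was measured in 4 Ndrg3 ctrl and 4 Ndrg3 TKO libraries. Reads were processed by the authors with cutadapt for trimming, STAR for alignment to GRCm38.p4 and featureCounts for counting, and the deposited values are raw counts, not normalized. The kit is stranded, but the counting's strand setting and its treatment of reads with several matches are not given in the sources used here. Symbols, positions, exon lengths and sequences came from GENCODE M21 (GRCm38), to which 98.5% of the rows matched by identifier, and the 53 Trb genes of that annotation all had a row.

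Counts were fitted with edgeR 4.0.16 in R 4.3.3 (filterByExpr, TMM, robust quasi-likelihood test, Benjamini-Hochberg over all 14633 tested genes, threshold 0.05), checked on simulated counts. Normalized counts are counts over the TMM-scaled library size times the mean total. The study's methods name DESeq2 (here version 1.42.0, an alternative). V and J shares are percentages of the summed Trbv or Trbj counts. Single shares were compared by 2-sided exact permutation over 70 splits. Genes named singly were Trb rows past the threshold, V segments of at least 1%, the 3 largest rises and falls of tested V rows, the D and C genes, the 3 largest J shares, list members past the threshold and Ndrg3. Others were named after their values were seen. Members and lists were chosen with earlier results of these data known. Totals of 21126698 to 32668081 counts set the precision. Other settings changed the tool, scaling, filter, block, sex covariate, denominator and libraries.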

Additional observations from a re-analysis of the deposited data

Results flagged for a closer look

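In groups of 4 libraries, 1 library lay apart from the other 3 by Dixon's test for 2 of the 70 sets of values checked, where chance alone gives about 3.5, or 1 in 20. Both concerned Trbc2, the constant gene of the second cluster. Ctrl replicate 2 had 20597.1 normalized counts beside 17401.5 to 17728.8 in the other controls, and TKO replicate 1 had 16659 beside 18417.3 to 18692.1 in the other knockouts. Without ctrl replicate 2 the log2 fold change of Trbc2 was 0.04, without TKO replicate 1 it was 0.02, and with all libraries it was -0.02. Ctrl replicate 2 was the shallowest library, with 21126698 counts, and TKO replicate 1 held 30113254.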

How the results depend on the processing

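The replicate numbers shared by the groups were checked as pairs. After removal of group means, same-numbered libraries correlated at 0.171, 0.394, -0.0579 and 0.281. Replicates 1, 2 and 4 correlated best with their own number while replicate 3 did not, so the numbers were not treated as pairs. In the column headers, sample numbers run close together for replicate 1 of both groups, for replicates 2 and 3, and for replicate 4. What these sample numbers stand for is not given, and a block by them was not fitted. With the replicate block, 2 Trb rows passed the threshold, Trbv12-2 (0.22, adjusted p = 0.0405) and Trbv13-2 (0.24, adjusted p = 0.00813), in a fit that called 5.47% of all tested genes. The count of Trb rows past the threshold was 0 to 1 when 1 library was left out, the 1 being Trbv13-2 without TKO replicate 1, and 0 with DESeq2, other size factors, no filter, scaling to Trbv counts or a Y-linked covariate. Genes called in all, 168, became 800 with the block, 437 with the covariate, 309 with DESeq2, 274 without the filter, 59 when scaled to Trbv counts and 90 to 158 without 1 library. Scaling to Trbv counts moved the median of all genes to -0.0563. Among the V segments of at least 1%, the number whose shares did not overlap was 1 for every denominator, Trbv29, and 1 to 3 without 1 library. Leaving out a library cannot make groups overlap, so Trbv29 stayed by construction, and it was joined by Trbv13-3 and Trbv15 without ctrl replicate 1, by Trbv13-2 without ctrl replicate 4, by Trbv13-2 and Trbv13-3 without TKO replicate 1, by Trbv1 and Trbv16 without TKO replicate 2, and by Trbv19 and Trbv26 without TKO replicate 4.

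Changes of sign among the log2 fold changes were as follows. Scaled to Trbv counts, Trbv3 was at -0.0413, Trbj1-4 at -0.00126 and Trbj2-7 at -0.0342, and with the covariate Trbv3 was at -0.0588. Without 1 library the log2 fold change ran from -0.0736 to 0.148 for Trbv3, from -0.0661 to 0.0548 for Trbv14, from -0.106 to 0.0702 for Trbv15, from -0.148 to 0.0541 for Trbv16, from -0.00393 to 0.227 for Trbv17, from -0.0865 to 0.0497 for Trbv31, from -0.0451 to 0.0390 for Trbc2, from -0.128 to 0.0494 for Trbd2, from -0.0268 to 0.106 for Trbj1-4 and from -0.0177 to 0.0964 for Trbj2-7. Without 1 library the difference in share also changed sign for Trbv3 (-0.60 to 0.196 points), Trbv12-1, Trbv17, Trbc1 within the C genes (-0.868 to 0.389) and Trbd1 within the D genes (-3.47 to 1.25). The cause was not tested. Gata3, Klrb1c and Ndrg3 kept their direction and stayed past the threshold in all 14 other settings. With 4 mice a group, the 95% intervals of the tested V segments reached a median of 0.268 on the log2 scale to each side, and rows of under 50 counts had intervals up to 0.813 wide on each side.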
